A study of Mus musculus with 9 samples.

Results

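The genes described here are 6 serpins of the mouse epidermis, Serpina3n, Serpinb2, Serpinb3a, Serpinb5, Serpinb7 and Serpinh1. They were chosen by gene symbol, with the signals of these same arrays already known, so their levels and differences are given as a description and without p-values. The members are 6 of the 40 serpin genes measured and of the 17097 genes measured in all, and 10 probe sets carried their symbols. For each gene the brightest of its probe sets, by the mean of all 9 arrays, is the main one, and the others are given beside it.

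The arrays compared basal epidermal cells from regions around a wound with cells from far away, to define what sets the migrating front apart from the proliferating zone behind it. Wounds of 3 mm were made in the tail skin of CD1 mice, and cells were collected at day 4. The leading edge (LE) group came from a punch of 4 mm around the wound and was sorted as positive for α5-integrin (Itga5). The hub group came from a punch of 6 mm and was sorted as negative for α5-integrin, and for the control group, taken away from the wound, the labels name no α5-integrin gate. All 3 groups shared the gate for basal cells of the interfollicular epidermis and infundibulum, positive for α6-integrin and negative for CD34, the surface marker of hair follicle bulge cells. Each group had 3 arrays, each array held amplified RNA of 300 cells, and the tissue was pooled from 5 mice. The labels call the arrays of a group biological replicates and the methods call them technical, so errors and p-values measure the spread between these arrays only. Region and α5-integrin gate changed together between the groups and cannot be told apart.

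Itga5 signal was 9.06 to 9.17 on the LE arrays, 6.46 to 7.47 on the hub arrays and 6.23 to 6.50 on the control arrays, on the log2 scale of the array values. The basal keratins Krt5 and Krt14 lay at 13.23 to 13.34 and 13.26 to 13.34 over all arrays, and Cd34 lay at 4.50 to 4.95. On the 23 nonspecific background probe sets the median was 4.66 and the 95th percentile 7.40. Serpinb7 was the 1 member whose mean over all arrays was under that percentile.

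Serpins are a family of proteins that share a fold with a mobile loop. In the inhibitory members, a target protease cuts the loop and is then trapped in a covalent complex, so that each serpin molecule is used once. Other members have kept the fold without inhibiting proteases, and serve as hormone carriers, tumour suppressors or chaperones. The clade B serpins lack a classical signal peptide and act largely inside the cell, and in the epidermis they are known for guarding keratinocytes against proteases of their own and of immune cells.

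Of the members, 4 lie in 1 cluster of clade B serpins on chromosome 1, in the order Serpinb5, Serpinb3a, Serpinb7 and Serpinb2. The cluster holds 12 coding genes in the RefSeq annotation of assembly GRCm38.p6, of which 7 were measured. Serpina3n lies at the end of the clade A cluster on chromosome 12, next to Serpina3m, and Serpinh1 lies alone on chromosome 7 between Map6 and Gdpd5. The 150 bases upstream of the annotated start are shown for the 4 members of the chromosome 1 cluster, because they share 1 cluster and their signals differed in pattern over the 3 groups. They lie at chr1:106861025-106861174 for Serpinb5, chr1:107422539-107422688 for Serpinb7 and chr1:107511273-107511422 for Serpinb2 on the plus strand, and at chr1:107052304-107052453 for Serpinb3a on the minus strand. The sequences are from RefSeq, 5′ to 3′ along each gene, and for Serpinb2 the first of 2 annotated starts was used. Capitals mark the letters TGANTCA, the binding motif of AP-1 factors, and TATAAA, the TATA box, on either strand.
Serpinb5: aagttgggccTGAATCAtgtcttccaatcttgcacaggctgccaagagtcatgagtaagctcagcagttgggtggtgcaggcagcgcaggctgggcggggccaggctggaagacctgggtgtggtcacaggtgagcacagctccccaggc
Serpinb3a: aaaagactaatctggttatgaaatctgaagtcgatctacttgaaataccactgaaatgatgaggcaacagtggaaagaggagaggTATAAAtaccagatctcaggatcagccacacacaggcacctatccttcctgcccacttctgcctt
Serpinb7: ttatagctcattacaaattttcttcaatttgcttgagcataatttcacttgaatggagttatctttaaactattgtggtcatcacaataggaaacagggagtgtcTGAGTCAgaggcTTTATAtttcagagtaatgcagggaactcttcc
Serpinb2: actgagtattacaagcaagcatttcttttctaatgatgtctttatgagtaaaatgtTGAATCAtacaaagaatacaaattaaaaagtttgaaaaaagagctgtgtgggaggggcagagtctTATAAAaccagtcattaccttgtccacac

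The search covered both strands of the 250 bases upstream of each start, and the matches found in the members did not overlap each other. TGANTCA was found upstream of Serpinb2, Serpinb5 and Serpinb7, 3 of the 6 members, and in 6.75% of the 32851 windows of all genes. Counted from the start, it lay from -94 to -88 in Serpinb2, from -140 to -134 in Serpinb5 and from -45 to -39 in Serpinb7. TATAAA was found upstream of Serpinb2, Serpinb3a and Serpinb7, and in 12.4% of all windows. The STAT motif TTCNNNGAA, in 7.02% of all windows, was found at the other start of Serpinb2, the C/EBP motif TTGCNNAA, in 9.56%, at Serpinb2, and the heat shock element GAANNTTC, in 6.69%, at Serpinb5. Serpina3n and Serpinh1 held none of the 5 motifs in this window. These matches describe letters in the window and were not tested for binding.

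Serpina3n encodes a secreted inhibitor related to human antichymotrypsin, known to block granzyme B and leukocyte elastase. Its signal was 6.83, 6.81 and 7.09 on the LE arrays, 9.11, 8.99 and 8.59 on the hub arrays and 7.96, 8.06 and 8.23 on the control arrays. The 3 groups did not overlap, with the hub at the top, the control between and the LE at the bottom. The LE mean of 6.91 ± 0.15 (SD, n = 3) differed from the hub mean of 8.90 ± 0.27 by -1.99 ± 0.14 (SE) on the log2 scale. Against the control mean of 8.08 ± 0.14, the LE differed by -1.17 ± 0.14 and the hub by 0.82 ± 0.14. The wound regions lay on opposite sides of the control. All 3 LE values were under the 95th percentile of the nonspecific probe sets, so no fold is given for the LE. In bulk samples such as these, fewer cells that express a gene and less of its RNA per cell cannot be told apart.

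Serpinb3a, a mouse counterpart of human squamous cell carcinoma antigen, is an inhibitor of cysteine and serine proteases made in squamous epithelia. Its signal was 7.56, 7.95 and 7.59 on the LE arrays, 9.48, 9.97 and 9.42 on the hub arrays and 8.77, 8.70 and 8.72 on the control arrays. The order of the groups was that of Serpina3n, again without overlap. The LE differed from the hub by -1.93 ± 0.15, a 3.80-fold lower signal, and from the control by -1.03 ± 0.15, while the hub was 0.89 ± 0.15 above the control. A further probe set of the gene gave -2.11 ± 0.16, -1.15 ± 0.16 and 0.96 ± 0.16 for the same comparisons. The third probe set gave -0.88 ± 0.10 between LE and hub and 0.76 ± 0.10 between hub and control. Between LE and control it gave -0.12 ± 0.10, where its groups overlapped at 7.22 to 7.37 and 7.29 to 7.54. These values lay close to the 95th percentile of the nonspecific probe sets, 7.40, so this probe set cannot decide whether the signal fell there. The LE values of the main probe set lay just above that percentile, so its fold is given with that limit. Both further probe sets are of a type whose probes can also bind related transcripts, and Serpinb3a has near-identical neighbours in Serpinb3b, Serpinb3c and Serpinb3d, which were not analysed here, so the signal may be shared among them.

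Serpinb2, also named plasminogen activator inhibitor 2, inhibits urokinase and is made by keratinocytes and macrophages. Its signal was 8.63, 9.11 and 8.69 on the LE arrays, 7.93, 8.59 and 8.31 on the hub arrays and 10.02, 10.16 and 10.17 on the control arrays. Both wound regions lay below all control arrays, and the lowest LE array was just above the highest hub array. The control mean of 10.12 ± 0.08 exceeded the LE mean by 2.47-fold and the hub mean by 3.58-fold. On the log2 scale the LE differed from the control by -1.30 ± 0.17 and the hub by -1.84 ± 0.17. The difference of 0.53 ± 0.17 between LE and hub was small beside these, with a 95% interval of 0.15 to 0.92. Intervals given for members come from limma for each gene alone, without adjustment for the number of genes, and are not read as tests.

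Serpinb7 is a clade B inhibitor of the epidermis whose loss in humans causes a palmoplantar keratosis. Its signal was 5.58, 4.92 and 5.23 on the LE arrays, 7.78, 7.91 and 6.64 on the hub arrays and 8.90, 9.09 and 8.69 on the control arrays. The groups did not overlap and stepped down from control to hub to LE. The LE differed from the control by -3.65 ± 0.31 and from the hub by -2.20 ± 0.31. The hub differed from the control by -1.45 ± 0.31. The 3 LE values lay within the range of the nonspecific probe sets, so these values are not clearly above background and no fold is given for the LE. The hub mean of 7.44 was close to the 95th percentile of those probe sets. The hub arrays also spread more than those of any other member, with an SD of 0.70, and hub replicate 3 at 6.64 was the lowest of them.

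**Figure D1:**
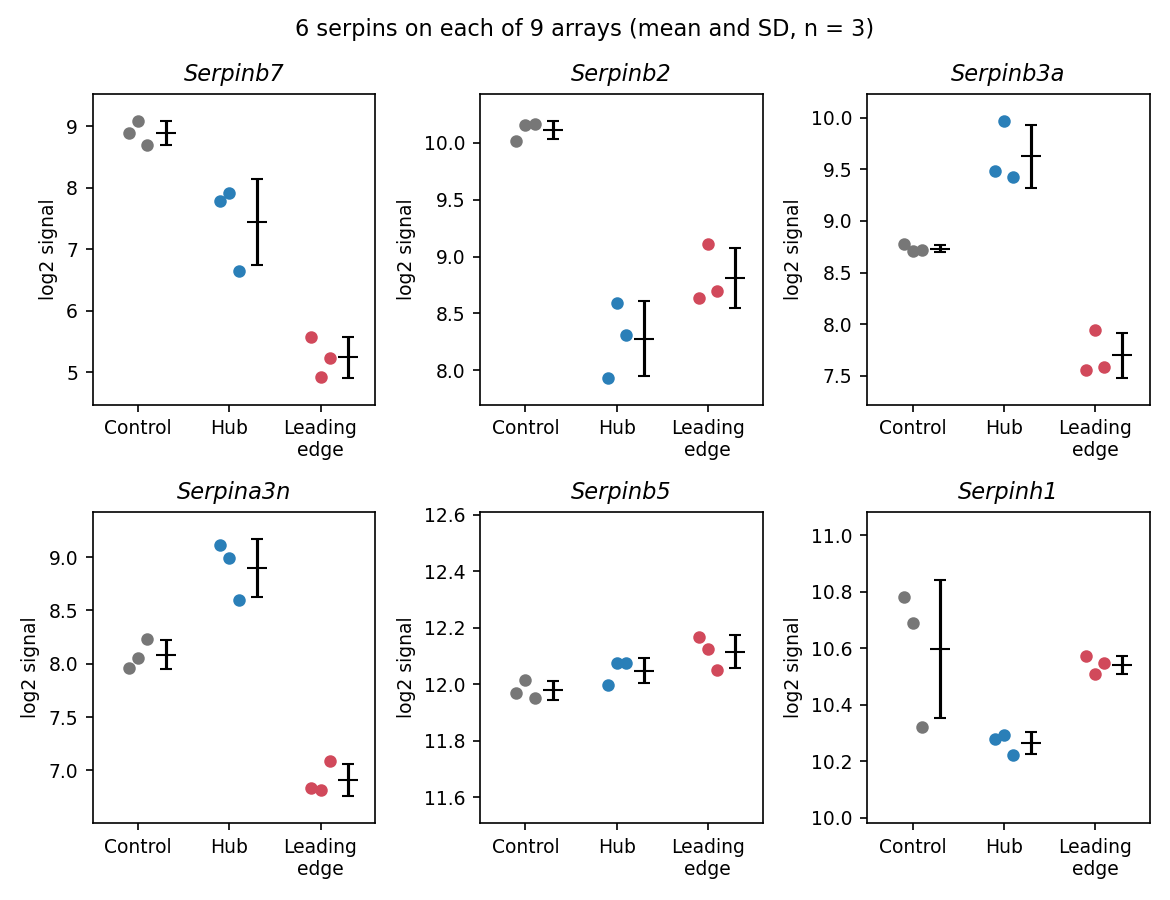
Signal of the 6 serpins on each of the 9 arrays, in log2 units, by group (LE, hub and control), with a dash at each group mean and a bar for its SD (n = 3). Serpina3n and Serpinb3a peak in the hub, Serpinb2 and Serpinb7 in the control, and Serpinb5 and Serpinh1 stay within narrow ranges, of 11.95 to 12.17 and 10.22 to 10.78.

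The remaining members belong to the serpins that do not inhibit proteases. Serpinb5 encodes maspin, known as an epithelial tumour suppressor. Its signal was 12.17, 12.12 and 12.05 on the LE arrays, 12.00, 12.07 and 12.08 on the hub arrays and 11.97, 12.02 and 11.95 on the control arrays. LE and hub overlapped, hub and control overlapped, and the LE arrays lay just above the control arrays. The differences were 0.07 ± 0.06 between LE and hub (95% interval -0.08 to 0.21), 0.14 ± 0.06 between LE and control (-0.01 to 0.28) and 0.07 ± 0.06 between hub and control (-0.08 to 0.22). Its other probe set gave -0.16 ± 0.11, -0.04 ± 0.11 and 0.12 ± 0.11, so the probe sets differ in sign for both differences that involve the LE.

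Serpinh1 encodes HSP47, the chaperone of the endoplasmic reticulum that binds folded procollagen. Its signal was 10.57, 10.51 and 10.55 on the LE arrays, 10.28, 10.29 and 10.22 on the hub arrays and 10.78, 10.69 and 10.32 on the control arrays. The hub arrays lay below all others, and the LE arrays fell inside the range of the control arrays. The hub mean of 10.26 ± 0.04 was 0.28 ± 0.11 below the LE mean and 0.33 ± 0.11 below the control mean. Between LE and control the difference was -0.06 ± 0.11, with a 95% interval of -0.30 to 0.19. A second probe set gave the same directions, with 0.31 ± 0.15 for LE over hub and -0.36 ± 0.15 for hub against control. Control replicate 3, at 10.32, lay close to the hub arrays, and without it the difference between LE and control was -0.19 and that between hub and control -0.47.

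Set against all genes, the members were counted with the same rule, limma with a Benjamini-Hochberg adjusted p under 0.05 over 17097 genes. Nothing is read from these counts, because the members were chosen with these contrasts known. Between LE and hub, 0 members were called higher and 3 lower, beside 5.39% and 5.23% of all genes, and 5 members had groups that did not overlap, beside 30.0% of all genes. Calls of members are given as counts only. Between LE and control, 0 were called higher and 4 lower, beside 11.9% and 10.8% of all genes, and 5 did not overlap, beside 36.2%. Between hub and control, 2 were called higher and 2 lower, beside 4.16% and 3.12% of all genes. There, 5 members did not overlap, beside 23.8%. The median difference of the members was -0.93, -1.10 and -0.13 in the 3 comparisons, beside -0.01, 0.02 and 0.03 for all genes. The LE comparisons share the LE arrays, and the comparisons with the control share the control arrays.

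**Figure D2:**
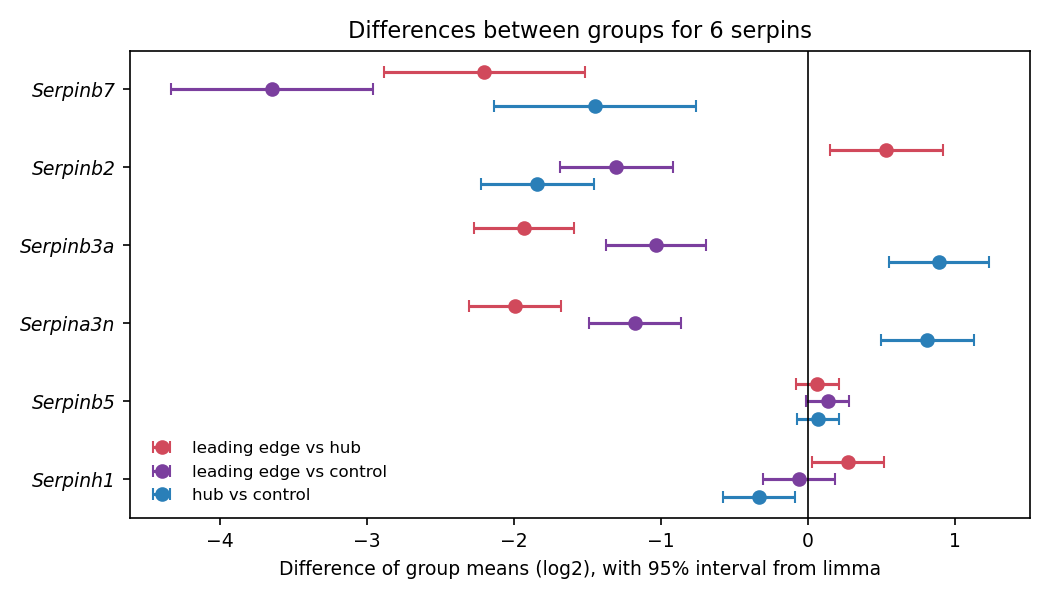
Difference of group means in log2 units, with its unadjusted 95% interval from limma, for the 6 serpins in the 3 comparisons. The intervals are not read as tests. Serpinb7 lies at -3.65 for LE against control, with LE values in the background range. Serpina3n and Serpinb3a lie below 0 for LE and above 0 for hub against control. Serpinb5 lies at 0.07 (LE against hub), 0.14 (LE against control) and 0.07 (hub against control).

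Across the 9 arrays, Serpina3n and Serpinb3a had a Pearson r of 0.96 with each other, although they lie on different chromosomes and belong to different clades. Serpina3n and Serpinb7 had an r of 0.67 and Serpinb5 and Serpinb7 one of -0.79, and the other pairs lay between -0.57 and 0.61. These values describe 9 arrays in 3 groups, so they follow the group means and carry no p. Among all genes, those with the highest r to Serpina3n were Rae1 (0.98), C1rb (0.97) and Ly6c1 (0.96). For Serpinb3a they were Cdc37l1 (0.98), Slc35g1 (0.97) and Serpina3n (0.96). For Serpinb7 they were Iffo2, Ptn and Cdh13 (each 0.99), and for Serpinh1 they were Vwa2 (0.97), Myh10 (0.96) and Ildr1 (0.95). For Serpinb5, whose range was narrow, they were Crmp1 (0.96), Septin2 (0.96) and 2510039O18Rik (0.95).

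The gene most like Serpinb2 was Xist (0.98), the RNA that coats the inactive X chromosome of female cells, followed by Dnajb1 (0.96) and Gadd45a (0.95). Xist signal was 10.50, 10.40 and 10.34 on the LE arrays, 9.65, 10.12 and 9.92 on the hub arrays and 11.60, 11.61 and 11.59 on the control arrays. Both wound regions were below the control, by -1.19 ± 0.11 for the LE and -1.71 ± 0.11 for the hub. The labels do not give the sex of the pooled mice, and whether the makeup of the pools has a part in the differences of Serpinb2 was not tested.

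The neighbours of the members did not follow one pattern along the chromosome 1 cluster. Serpinb12, an inhibitor of trypsin-like proteases next to Serpinb5, read 5.66, 5.86 and 5.55 on the LE arrays, 6.58, 7.09 and 6.49 on the hub arrays and 6.20, 5.69 and 5.60 on the control arrays. It was lower in the LE than in the hub, by -1.03 ± 0.19 (limma adjusted p = 0.00761), and higher in the hub than in the control, by 0.89 ± 0.19 (limma adjusted p = 0.022). The call against the control was lost without hub replicate 2, control replicate 2 or control replicate 3, with adjusted p up to 0.0665 in limma. Serpinb12 read under the 95th percentile of the nonspecific probe sets on all 9 arrays. Serpinb8, known to inhibit the convertase furin, lies in the same cluster, with Serpinb10 between it and Serpinb2. It was lower than in the control in the LE, by -0.72 ± 0.11 (limma adjusted p = 0.00106), and in the hub, by -0.69 ± 0.11 (limma adjusted p = 0.0051). A second probe set of Serpinb8 gave -0.87 ± 0.19 and -0.70 ± 0.19. With all probe sets tested, this second probe set was called in the LE but not in the hub (limma adjusted p = 0.0103 and 0.0671). In that fit the main probe set was called in both (limma adjusted p = 0.00131 and 0.00645). Serpinb11, beside Serpinb7, was not called in any comparison in limma and stayed between 5.54 and 6.31, under the 95th percentile of the nonspecific probe sets.

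**Figure D3:**
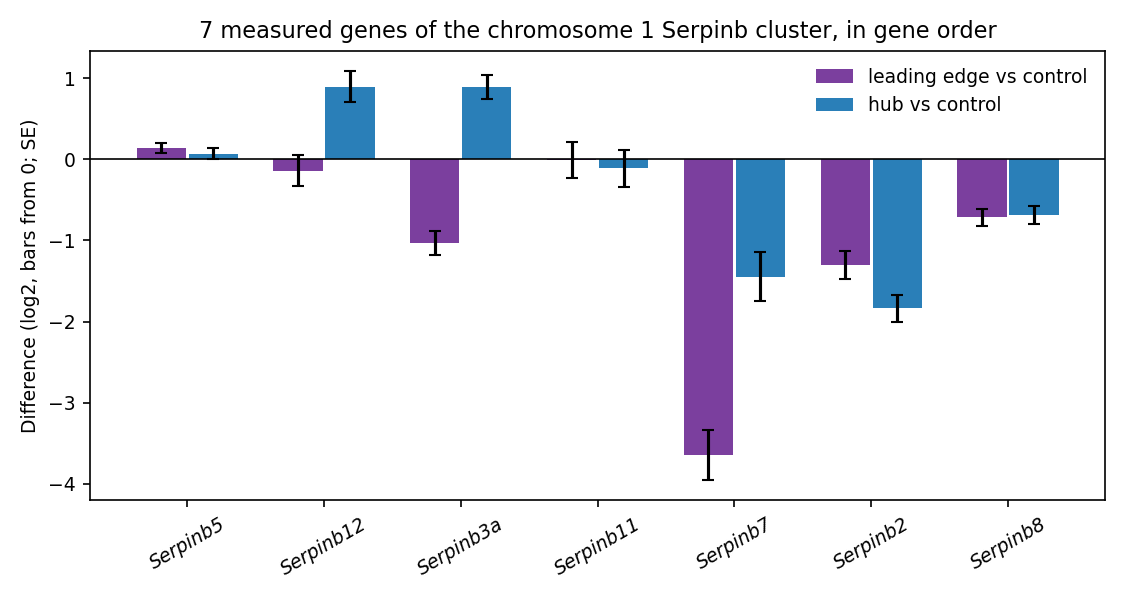
Difference of each wound region from the control in log2 units for the 7 measured genes of the chromosome 1 cluster, in their order along the chromosome. Bars run from 0 and error bars are SE. For hub against control (blue), Serpinb12 and Serpinb3a lie above 0, at 0.89 each, and Serpinb7, Serpinb2 and Serpinb8 below it, and for LE against control (purple) Serpinb7 reaches -3.65.

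The other 34 serpins measured were not chosen for how they moved, and 29 of them had a mean under the 95th percentile of the nonspecific probe sets. In limma, 4 were called higher and 1 lower between LE and hub, 6 higher and 3 lower between LE and control, and 3 higher and 2 lower between hub and control. In percent, 14.7, 26.5 and 14.7 of them were called, beside 10.6, 22.8 and 7.28 of all genes. Groups did not overlap for 9, 10 and 8 of the 34, beside 30.0%, 36.2% and 23.8% of all genes, and their median differences were 0.04, 0.07 and 0.05. Without single arrays the called number between LE and hub fell to 3, with LE replicate 1 or any 1 of the hub replicates left out, and between LE and control it fell to 5 without LE replicate 2.

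Serpinb1a, which inhibits neutrophil elastase and cathepsin G, was highest in the LE. Its signal was 10.22, 10.44 and 10.06 on the LE arrays, 9.03, 9.19 and 9.14 on the hub arrays and 7.99, 8.50 and 8.30 on the control arrays. The groups stepped up from control to hub to LE without overlap. The LE was above the hub by 1.12 ± 0.14 (limma adjusted p = 0.000866) and above the control by 1.98 ± 0.14 (limma adjusted p = 8.95e-06), and the hub was above the control by 0.85 ± 0.14 (limma adjusted p = 0.00599).

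Serpinb6a, an inhibitor of cathepsin G, had the same order of groups. Its signal was 10.32, 10.38 and 10.32 on the LE arrays, 9.19, 9.31 and 9.50 on the hub arrays and 8.71, 8.70 and 8.98 on the control arrays. The LE was above the hub by 1.00 ± 0.10 (limma adjusted p = 0.000334) and above the control by 1.54 ± 0.10 (limma adjusted p = 7.05e-06). The difference of 0.54 ± 0.10 between hub and control (limma adjusted p = 0.0134) was lost without hub replicate 3, at an adjusted p of 0.0502 in limma. Serpinb1a and Serpinb6a lie at the ends of the clade B cluster on chromosome 13, where 10 of 16 genes were measured. Of these, 3, 4 and 2 were called higher in the 3 comparisons, beside 5.39%, 11.9% and 4.16% of all genes, with 0 called lower. The calls other than Serpinb1a and Serpinb6a were Serpinb9g in both LE comparisons and Serpinb1b between LE and control. Their means over all arrays, 4.72 and 5.09, lay in the range of the nonspecific probe sets. Serpinb9g lost its calls in 6 and 3 of 9 cases with a single array left out, and Serpinb1b in 2.

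Serpina3i, from the same chromosome 12 cluster as Serpina3n, was lower than in the control in both wound regions, by -1.60 ± 0.11 in the LE (limma adjusted p = 8.49e-06) and -1.22 ± 0.11 in the hub (limma adjusted p = 0.000361). Its hub values of 8.30 to 8.38 lay below its control values of 9.47 to 9.60, whereas Serpina3n was higher in the hub than in the control. The remaining calls were of small size. They were Serpina9 at 0.36 and Serpinb9g at 0.29 in both LE comparisons, and Serpinb1b at 0.48, Serpina3a at 0.34 and Serpina4-ps1 at -0.37 between LE and control. Each of these calls was lost with at least 1 array left out, in 2 to 6 of the 9 cases. Serpinb9g has a second probe set, at 0.01 between LE and hub, and with its probe sets averaged the difference was 0.15 (limma adjusted p = 0.141).

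**Figure D4:**
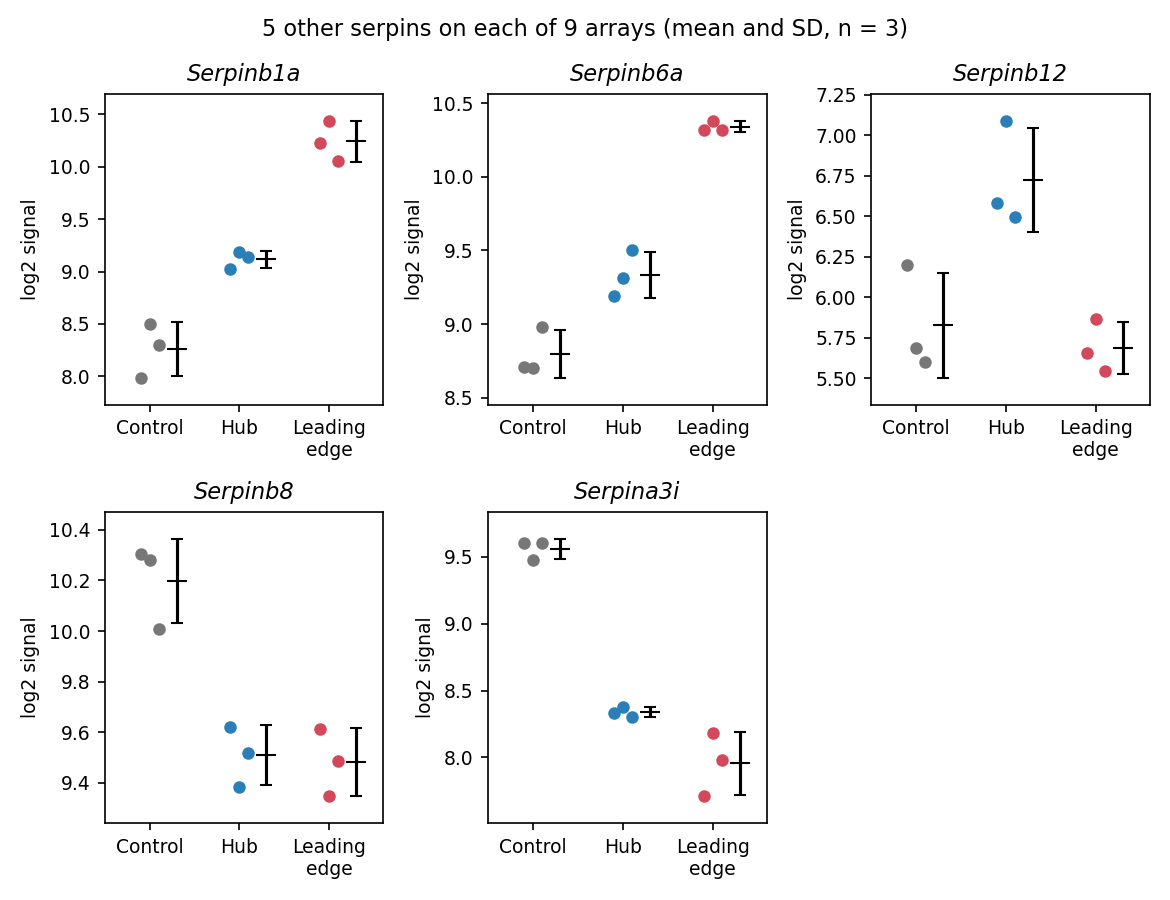
Signal of 5 other serpins on each of the 9 arrays, in log2 units, by group, with a dash at each group mean and a bar for its SD (n = 3). Serpinb1a and Serpinb6a step up from control to hub to LE, Serpinb12 is highest in the hub, and Serpina3i and Serpinb8 are lower in both wound regions than in the control.

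Proteases that serpins of the skin are known to act on were then counted, with the receptors and cofactors of their pathways. Over all genes, 5.39%, 11.9% and 4.16% were called higher and 5.23%, 10.8% and 3.12% lower in the 3 comparisons. Nothing is read from the counts of this and the following lists, which were chosen with earlier results known. Of 12 measured genes of plasminogen activation and coagulation, 6 were called higher and 1 lower between LE and hub, 3 and 1 between LE and control, and 1 and 1 between hub and control. The 7 calls between LE and hub were Plau, a protease, and the receptors or cofactors Plaur, Anxa2, S100a10, Procr, F3 and Thbd, and they were 4 in number without hub replicate 1 or hub replicate 3. Plau, the urokinase that Serpinb2 inhibits, read 9.97, 9.91 and 9.50 on the LE arrays, 8.49, 8.68 and 8.51 on the hub arrays and 8.27, 8.32 and 8.70 on the control arrays. It was higher in the LE than in the hub, by 1.23 ± 0.15 (limma adjusted p = 0.000733), and than in the control, by 1.36 ± 0.15 (limma adjusted p = 0.000139). Its receptor Plaur was higher by 1.45 ± 0.15 (limma adjusted p = 0.00038) and 1.87 ± 0.15 (limma adjusted p = 2.43e-05). In the LE, therefore, Serpinb2 was below and Plau and Plaur were above the control, while in the hub Serpinb2 was below and Plau differed from the control by 0.13 ± 0.15.

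Of 15 cathepsins, lysosomal proteases that clade B serpins can inhibit, 1, 4 and 3 were called higher in the 3 comparisons and 0 lower. The 3 calls between hub and control were 1 without hub replicate 3, and the 1 call between LE and hub became 2 without LE replicate 2 or 3. Cathepsin L (Ctsl), a known target of the Serpinb3 group, read 12.16 to 12.17 on the LE arrays, 11.49 to 11.56 on the hub arrays and 11.10 to 11.20 on the control arrays. It rose by 0.65 ± 0.06 in LE over hub (limma adjusted p = 0.000269) and by 0.35 ± 0.06 in hub over control (limma adjusted p = 0.00992). Serpinb3a and Ctsl were thus both higher in the hub than in the control, and parted in the LE, where Ctsl was highest and Serpinb3a lowest. The third probe set of Serpinb3a, however, gave only -0.12 ± 0.10 between LE and control, with overlapping groups.

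Some kallikreins cut adhesion proteins of the outer epidermis. Of 17 kallikreins and other serine proteases, 4 were called higher and 3 lower between LE and hub. The counts were 5 and 3 between LE and control, and 2 and 0 between hub and control. Tmprss11e rose by 1.84 ± 0.13 and Prss22 by 1.59 ± 0.10 in LE over hub, and Klk11 fell by 0.75 ± 0.15 (limma adjusted p = 4.80e-05, 2.06e-05 and 0.0102). Klk10 rose by 3.31 ± 0.27 in LE over control (limma adjusted p = 2.42e-05) and by 2.03 ± 0.27 in hub over control (limma adjusted p = 0.00255). Of 12 granule proteases of immune cells, among them the granzymes that Serpina3n can block, limma called 0 in any comparison, with 0, 1 and 0 at an unadjusted p under 0.05 and 1 call between LE and control without control replicate 2. Elastase of neutrophils (Elane) read 5.37 to 5.80 over all arrays.

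Protease inhibitors outside the serpin family moved in both directions. Of 23 measured, 4 were called higher and 2 lower between LE and hub, 7 and 3 between LE and control, and 1 and 1 between hub and control. Csta1, a stefin that blocks cathepsins, stepped up from 8.32 to 8.57 on the control arrays to 9.97 to 10.34 on the hub arrays and 11.05 to 11.20 on the LE arrays. It rose by 2.65 ± 0.11 in LE over control (limma adjusted p = 6.78e-07), an order opposite to that of Serpinb7. Stfa2l1, another stefin, rose by 2.18 ± 0.23 and Timp1, an inhibitor of matrix metalloproteinases, by 3.09 ± 0.25 in LE over hub (limma adjusted p = 0.0004 and 7.89e-05). Timp3, of the same family as Timp1, fell by 3.16 ± 0.28 in LE and by 2.35 ± 0.28 in hub against control (limma adjusted p = 3.60e-05 and 0.00144).

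The pathway of Serpinh1 is the folding of collagen. Of 22 measured genes for collagen folding and modification, 6 were called higher and 2 lower between LE and hub, 10 and 1 between LE and control, and 3 and 1 between hub and control. The 8 calls between LE and hub were 5 without LE replicate 1, 4 without LE replicate 2, and 3 without LE replicate 3 or hub replicate 1. Sec24d, a coat protein for procollagen export, rose by 1.92 ± 0.13 in LE over control and by 0.92 ± 0.13 in hub over control (limma adjusted p = 8.46e-06 and 0.00345). Plod2, a lysyl hydroxylase, rose by 1.45 ± 0.20 and the prolyl hydroxylase subunit P4ha3 by 1.04 ± 0.15 in LE over control (limma adjusted p = 0.000632 and 0.00085). Beside these, the difference of Serpinh1 between LE and control was -0.06 ± 0.11. Of 14 collagens of the epidermis and its basement membrane, 1 was called higher and 0 lower between LE and hub, 1 and 3 between LE and control, and 0 and 2 between hub and control. The 1 call between LE and hub was lost without LE replicate 1 or 2 or hub replicate 1 or 2 and became 2 without control replicate 1, and the 4 between LE and control were 2 without any 1 of the LE replicates or control replicate 1.

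Clade B serpins are also known from the upper, differentiating layers of the epidermis, so suprabasal genes were counted beside them. Of 19 measured, 4 were called higher and 6 lower between LE and hub, 6 and 5 between LE and control, and 2 and 0 between hub and control. The keratins Krt1 and Krt10 of early differentiation fell by 1.73 ± 0.32 and 1.47 ± 0.22 and the desmosomal cadherin Dsg1a by 1.79 ± 0.14 in LE against hub (limma adjusted p = 0.00724, 0.0028 and 5.70e-05). Krt10 read 11.92, 10.96 and 10.90 on the LE arrays and 12.70 to 12.86 on all others. The cornified envelope genes Sprr1b and Tgm1 rose by 2.63 ± 0.16 and 2.11 ± 0.17 in LE over control (limma adjusted p = 4.86e-06 and 2.32e-05). The mean of the list lay at 9.49 to 9.69 in the LE, 9.59 to 9.69 in the hub and 9.39 to 9.52 in the control.

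Markers of other cells moved on some arrays. Over all genes, 10.6%, 22.8% and 7.28% were called in the 3 comparisons. Of 18 myeloid markers, 2, 6 and 1 were called higher in the 3 comparisons and 0 lower, and their mean lay at 6.36 to 7.02 in the LE, 6.23 to 6.25 in the hub and 5.84 to 6.02 in the control. Lyz2 read 8.25, 5.36 and 7.12 on the LE arrays, whereas Ptprc stayed at 4.06 to 4.81 on all arrays. Without LE replicate 2 the calls were 6 between LE and hub and 12 between LE and control, those between LE and hub were 1 without LE replicate 3 or hub replicate 2 or 3, and those between hub and control were 2 without control replicate 2 or 3. On LE replicate 2, where Lyz2 read 5.36, Serpina3n, Serpinb3a and Serpinb7 read 6.81, 7.95 and 4.92, below all hub and control arrays. The myeloid list mean on that array was 6.36, the lowest of the LE but above all hub and control arrays. The list holds S100a8 and S100a9, which the paper places among genes raised in sorted basal cells of both wound regions. S100a8 was 3.02 above the control in the LE and 2.51 above it in the hub (limma adjusted p = 0.000182 and 0.00264). The list mean does not separate their signal in keratinocytes from that of myeloid cells. The part of myeloid cells in the serpin differences was not tested.

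Of 14 fibroblast markers, 0 were called higher and 2 lower between LE and hub, 3 and 4 between LE and control (4 in all without LE replicate 3), and 1 and 2 between hub and control. Between LE and control, Postn, Dcn and Thy1 fell by 1.95 ± 0.17, 1.65 ± 0.20 and 1.28 ± 0.13 and Fbln1 rose by 1.27 ± 0.12 (limma adjusted p = 3.42e-05, 0.000304, 8.55e-05 and 6.52e-05). Vim rose by 2.62 ± 0.80 (limma adjusted p = 0.0427), a call lost with 1 array left out in 7 of 9 cases. Col1a2 and Pdgfra read 4.61 to 4.78 and 4.52 to 5.00 on all arrays, and the list mean lay between 7.10 and 7.40. Endothelial markers had 0 calls of 12 in limma, with 0, 3 and 1 at an unadjusted p under 0.05, and 1 or 2 calls in a comparison without LE replicate 1 or 2. Their Cdh5 stood high on LE replicate 1, at 9.73, and on hub replicates 2 and 3, at 8.39 and 8.42. Of 7 T cell markers, Thy1, which is also in the fibroblast list, was called lower in both LE comparisons, and Cd3e stayed at 4.88 to 5.04. Of 8 melanocyte markers, 1 was called lower between LE and control, a call lost without LE replicate 1 or 2, with 2 without LE replicate 3 and 1 between hub and control without control replicate 3. Their mean was 6.49 on LE replicate 3 and 5.70 to 6.02 on the other arrays. Of 7 Langerhans cell markers, 2 and 1 were called higher in the LE comparisons and 1 lower between hub and control, the last lost without hub replicate 3. H2-Ab1 rose by 1.93 ± 0.37 and Epcam by 1.04 ± 0.16 in LE over hub (limma adjusted p = 0.00887 and 0.00269), while Cd207 read 5.02 to 5.44 on all arrays. The list mean was 7.28, 7.44 and 7.90 on the LE arrays and 7.02 to 7.15 on all others. Of 9 basal keratinocyte markers, 4 were called higher and 1 lower in each LE comparison, and 1 and 1 between hub and control, where 1 call in all was left without hub replicate 1 or 3 or control replicate 1. Itgb1 and Itga3, integrin chains, rose by 0.88 ± 0.07 and 0.62 ± 0.08 in LE over hub (limma adjusted p = 8.97e-05 and 0.000989). Krt15 fell by 1.23 ± 0.09 in LE against hub and differed by -2.41 ± 0.09 from the control (limma adjusted p = 4.19e-05 and 3.00e-07). The list had means of 12.13 to 12.17 in the LE, 12.01 to 12.02 in the hub and 12.07 to 12.16 in the control. The part of these cells in the differences of the serpins was not tested.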

How the data were processed

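Basal epidermal cells of 3 groups with 3 arrays each were profiled on Affymetrix mouse PM strip arrays. The deposited values are log2 intensities that the authors made with RMA, and no source used here gives its version. RMA gives the arrays a shared distribution and compresses differences between dim genes. For arrays no depth applies, and their number limits the precision.

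Of 45141 probe sets, 28898 had 1 symbol in the platform annotation, 551 several and 15588 none, and 104 were controls. The probe set with the highest mean stood for a gene, which left 17097 genes. All 9 arrays entered 1 model of group means (limma 3.58.1, R 4.3.3), with two-sided tests, and a gene was called at a Benjamini-Hochberg adjusted p under 0.05. The fit was tested on simulated data. For the members, levels, differences and errors are given without p-values, and calls only as counts beside those of all genes.

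Members and gene lists were chosen with earlier results of these data known. Named were the members, other serpins called, their neighbours, the 3 genes most like each member by Pearson r, list genes among the largest called, and sort genes. In the text, list genes were preferred whose calls held with each array left out, a choice made after their values were seen.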

Additional observations from a re-analysis of the deposited data

Results flagged for a closer look

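For 5 of the other serpins, the change against the control differed between LE and hub, tested as the difference of LE and hub itself in limma, since both share the control arrays. The differences were 1.12 for Serpinb1a, 1.00 for Serpinb6a, -1.03 for Serpinb12, 0.36 for Serpina9 and 0.29 for Serpinb9g on the log2 scale, with limma adjusted p of 0.000866, 0.000334, 0.00761, 0.0369 and 0.0357. The first 3 kept their calls with each of the 9 arrays left out in turn. Serpina9 lost its call in 5 of these 9 cases and Serpinb9g in 6, and with its probe sets averaged Serpinb9g gave 0.15 (limma adjusted p = 0.141). Serpinb12, Serpina9 and Serpinb9g had means under the 95th percentile of the nonspecific probe sets and were not tested with dim genes left out.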

How the results depend on the processing

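Of 423 values recomputed under 20 settings, 395 kept their value within the spread between replicates, or within 1.5 times for a count, and 28 moved. A change of direction could be recorded only for differences of called members, never for a count, and 0 were recorded. Nothing is read from this, because the members were chosen with these contrasts known. For the members, 299 of 303 values stayed within the spread between replicates. Many of these values, also among the 423, could not move. Several settings alter only the errors or leave out arrays of the group not compared. The counts are therefore not a measure of stability. With a gene's probe sets averaged, Serpinb3a gave -1.64 between LE and hub and -0.77 between LE and control, and Serpinb5 gave -0.045 and 0.048 (0.07 and 0.14 with the brightest probe set).

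The other serpins called between LE and hub, 5 in number, numbered 3 with dim genes left out (2 of them among the 5), 3 with at least 2-fold as well, 0 by the fold rule of the methods (8 at an unadjusted p under 0.05 in limma) and 3 to 5 with 1 array left out. The fold rule was applied here between same-numbered arrays, each of which had to pass 2-fold. Whether these arrays pair is unknown, so its counts depend on that matching. Between LE and control, 9 became 4 without dim genes, 3 with at least 2-fold, 3 by the fold rule and 5 to 9 with 1 array left out. Between hub and control, 5 became 3 with only the 6 arrays compared, 1 with at least 2-fold and 1 by the fold rule. Over all genes, 1816 calls between LE and hub became 319 with at least 2-fold and 178 by the fold rule, and 3891 between LE and control became 803 and 515. The 1244 calls between hub and control became 186, 89, 766 with only the 6 arrays, and 699 to 1153 with 1 array left out. Where no cause follows from the setting's own construction, the cause was not tested.

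Same-numbered arrays did not deviate together (r of -0.18 to 0.08 over 9 pairs, 0 over 0.1). This check cannot show whether same-numbered arrays came from the same mice, so any pairing of the samples is unknown. With the replicate number as a block, 3 other serpins were called between LE and hub. Signals near the nonspecific background, as for Serpinb7 in the LE, limit what the arrays can measure.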
